A study of Arabidopsis thaliana with 24 samples.

Results

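The transcripts described here come from 44 loci of Arabidopsis thaliana whose levels were higher in untreated axr3-1 mutant seedlings than in untreated wild type. Their measured values changed little when wild type was given auxin. A probe set was taken where its annotation names 1 gene, where that gene has only a locus code for a symbol, and where 3 limits held. The mean log2 value of the axr3-1 control arrays exceeded that of the Col control arrays by at least 1, the lowest axr3-1 control array lay above the highest Col control array, and the Col IAA mean differed from the Col control mean by under 0.7 in either direction. These limits kept 44 of 11933 probe sets with a locus code, out of 22746 probe sets in all. Ignoring the annotation, 141 probe sets met the 3 limits, of which 15 belong to 1 gene with a name, 2 to several genes and 80 are unnamed here.

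Expression was measured on 24 Affymetrix ATH1 arrays, 3 for each of 8 groups of whole seedlings aged 7 days. The groups were axr3-1, iaa17-6, the triple mutant iaa5-1 iaa6-1 iaa19-1 (iaa5 iaa6 iaa19, or triple mutant) and Columbia wild type (Col), each given 5 µM indole-3-acetic acid (IAA) or the solvent ethanol (control) for 2 h at 24 °C. All mutants are in the Columbia ecotype, and every culture grew in shaken liquid medium with 1.5% sucrose under a cycle of 16 h light and 8 h dark. Nothing in the labels tells whether the replicates are separate cultures, and the p-values therefore cover the spread of these samples alone, which could be technical. The mutated genes IAA17, IAA5, IAA6 and IAA19 have 0 probe sets named in the annotation used here, so their levels gave no check of the labels.

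Aux/IAA proteins are short-lived repressors that hold auxin response factors inactive, and auxin releases these factors by sending the repressors to degradation through the TIR1/AFB receptors. The axr3-1 allele alters the degradation signal of IAA17, which stabilises the repressor, and the plants respond weakly to auxin and form few root hairs. The iaa17-6 line carries another allele of the same gene, and the triple mutant carries alleles of 3 related Aux/IAA genes. The annotation gives no function for any of the 44 loci, so none is stated. All 44 codes matched a RefSeq gene, all of them protein-coding, and each locus had 1 probe set.

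Values are on the deposited log2 scale, whose lowest value of 5.64 is a floor shared by every array, and 44.4% to 46.0% of the values of an array lie there. Where all 3 arrays of a group sit at that floor, a difference from it is given as a bound. Such a group has an SD of 0 and enters the spread estimated over all 8 groups. The SE and p-values of a locus with such groups can therefore be too small. Of the 44 loci, 30 were above the floor on all 24 arrays, and 3 stood at the floor on all Col control arrays. On all Col IAA arrays, 9 of the 44 stood at the floor. For these 9, a fall in Col after IAA can be seen only as far as the floor. The limit on the Col response could therefore not exclude a larger fall. Array pairs within a group correlated at 0.958 to 0.996, and 6 arrays stood apart from the others of their group, namely Col control replicate 3, iaa17-6 control replicate 3, iaa17-6 IAA replicate 3, axr3-1 IAA replicate 3, and replicate 1 of both triple-mutant groups. Because whole seedlings were used, fewer cells of a type and less RNA per cell cannot be told apart.

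The loci were chosen by their values on the axr3-1 control, Col control and Col IAA arrays, so values of those groups are a description with no test. In control, the axr3-1 mean exceeded the Col mean by a median of 1.23 on the log2 scale, with a range of 1.00 at AT2G03550 to 2.75 at AT1G73040, the last a bound. Over all 14192 probe sets tested, the median of this difference was 0.00, and 1.32% lay at least 1 higher in axr3-1 with no overlap between the groups, and 1.3% at least 1 lower. Just inside the first limit were AT2G03550 (1.00), AT2G18370 (1.00) and AT2G43620 (1.03), and just outside it AT5G65380 (0.99), AT2G23540 (0.98) and AT1G74010 (0.97). AT2G41090 (0.60), AT5G58570 (0.59) and AT2G43620 (0.57) came closest to the limit on the Col response from within, and AT4G24110 (0.72), AT5G52450 (0.73) and AT1G80130 (0.75) from beyond it. In all, 19 loci met the other limits but not that one, 17 with a rise and 2 with a fall in Col. The gap between the lowest axr3-1 control array and the highest Col control array was narrowest at AT5G66985 (0.10), AT4G27450 (0.11) and AT2G43620 (0.18). AT1G33055 (-0.02) and AT5G17760 (-0.18) failed that limit by overlap.

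Across the 44 loci, the median excess over Col control was above 0 on every axr3-1 array and was smaller in the other mutants. On the axr3-1 control arrays, which were chosen for being high, the limits required an excess. Single loci differed, as the axr3-1 control mean was below that of iaa17-6 control at 2 loci and of the triple-mutant control at 3. Taken as the median over the loci of an array's value minus the Col control mean, the excess was 0.88, 1.05 and 1.2 on the axr3-1 IAA arrays and 1.28, 1.16 and 1.45 on the axr3-1 control arrays. It was 0.23, 0.43 and 0.64 on the iaa17-6 IAA arrays and 0.37, 0.57 and 0.44 on the iaa17-6 control arrays. In the triple mutant it was 0.10, 0.37 and 0.18 with IAA and 0.49, 0.31 and 0.27 in control. The Col IAA arrays gave 0.02, 0.27 and -0.02, and the Col control arrays -0.02, 0.21 and -0.13. The axr3-1 arrays, which include 3 given IAA that the limits did not use, all had higher medians than any array of the other lines. The medians above 0 in iaa17-6 and the triple mutant are set against Col control arrays that were chosen for being low, so no difference from Col is read from them.

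**Figure D1:**
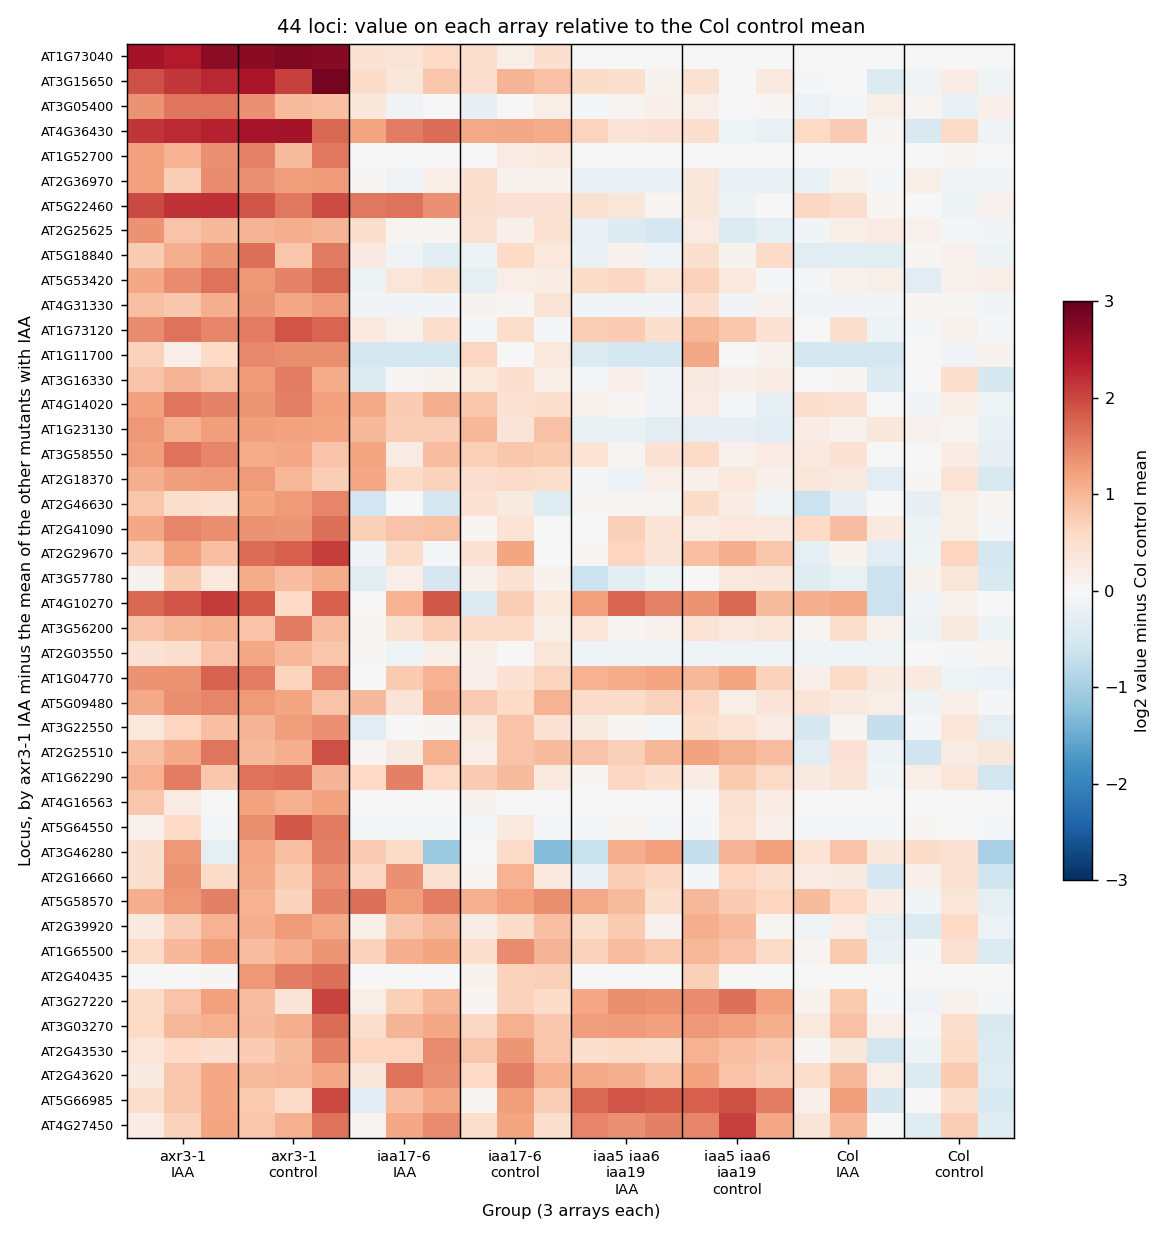
Each row is 1 of the 44 loci and each column 1 array, in 8 groups of 3, with colour giving the log2 value minus the Col control mean of that locus (the scale runs to 3 in either direction and holds every value). The 6 axr3-1 arrays at the left are red for most loci, while in bottom rows such as AT5G66985 and AT4G27450 the triple mutant is at least as red.

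After IAA, many of the loci were also higher in axr3-1 than in the other mutants, a comparison that shares no array with the limits. Whether the axr3-1 IAA arrays share deviations with the axr3-1 control arrays, which were chosen for being high, was not tested. Against iaa17-6, 18 of the 44 loci were higher and 0 lower (limma, adjusted p under 0.05), or 40.9% of the loci, where 3.02% of all probe sets tested were called higher and 4.21% lower. Against iaa5 iaa6 iaa19, 23 were higher and 0 lower, or 52.3%, where 5.67% of all probe sets were called higher and 4.09% lower. The median log2 difference of the 44 loci was 0.58 against iaa17-6 and 0.73 against the triple mutant, and that of all probe sets was 0.00 in each. At an unadjusted p under 0.05, 0 loci were lower than in iaa17-6 and 1 was lower than in the triple mutant. Every locus called in these comparisons had axr3-1 IAA arrays that did not overlap those of the other mutant. Counting every locus, called or not, axr3-1 IAA lay above iaa17-6 IAA without overlap for 25, where 9.41% of all probe sets did, and above the triple mutant for 28, where 14.2% did. The comparisons share the axr3-1 IAA arrays, so agreement between them is not read as support. Fits of only the 6 arrays concerned, with the replicate number as a block, leave few degrees of freedom. In them the count against iaa17-6 was 2, where 116 of all probe sets were called in either direction. The count against the triple mutant was 0, where 0 of all probe sets were called. In that comparison, deviations of arrays with the same replicate number correlated at 0.01, 0.70 and -0.55, so they did not pair throughout.

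**Figure D2:**
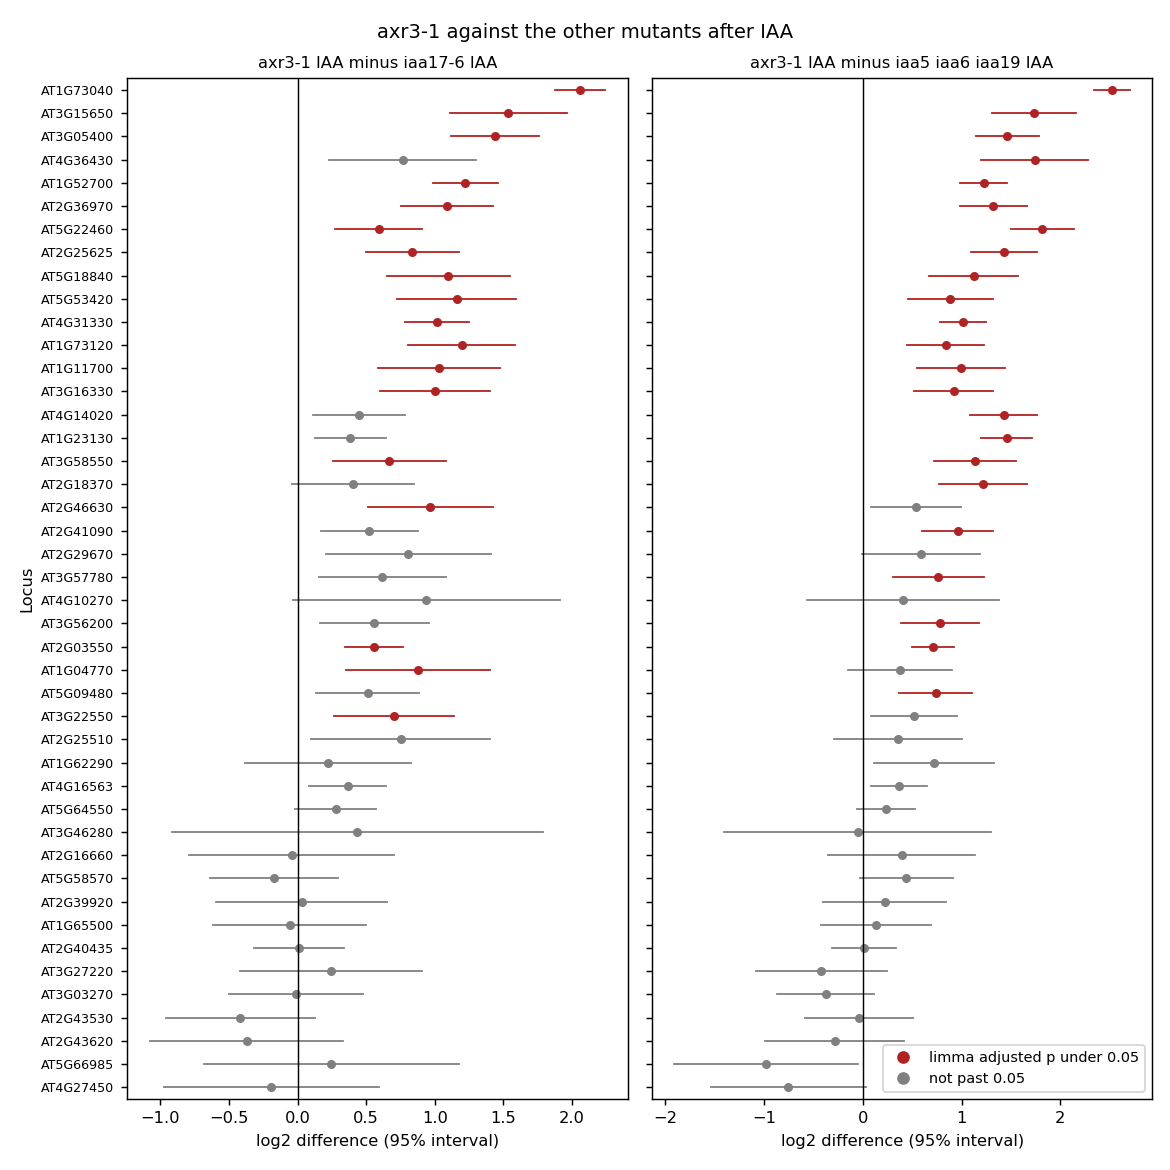
Log2 differences with 95% intervals for the 44 loci, axr3-1 IAA minus iaa17-6 IAA on the left and axr3-1 IAA minus iaa5 iaa6 iaa19 IAA on the right, in red where the limma adjusted p was under 0.05. Red points number 18 on the left and 23 on the right, all of them right of 0.

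AT1G73040 had the largest difference. It read 8.15, 8.03 and 8.32 on the axr3-1 IAA arrays, 6.07, 6.02 and 6.23 on those of iaa17-6, and 5.64, the floor, on all 3 of the triple mutant and all 3 of Col. In control it read 8.36, 8.43 and 8.38 in axr3-1, 6.16, 5.82 and 6.13 in iaa17-6, and stood at the floor on all triple-mutant and Col arrays. The locus was therefore above the floor on all 6 arrays of axr3-1 and of iaa17-6, and on no array of the other lines. Whether their IAA17 alleles play a part in this was not tested. The locus was 4.16-fold higher in axr3-1 than in iaa17-6 after IAA (log2 2.06, SE 0.09, adjusted p = 1.15e-11 in limma). It was at least 5.73-fold higher than in the triple mutant (adjusted p = 8.68e-13 in limma). Both triple-mutant and both Col groups had an SD of 0 at the floor, which lowers this SE and these p-values. In control, the iaa17-6 and triple-mutant arrays of this locus did not overlap, but the difference of 0.39 was not past the threshold (limma adjusted p = 0.0911).

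AT3G15650 read 8.51, 8.68 and 8.84 on the axr3-1 IAA arrays, against 7.12, 6.90 and 7.40 in iaa17-6, 7.11, 7.05 and 6.68 in the triple mutant, and 6.50, 6.59 and 6.15 in Col. Its axr3-1 control arrays read 9.02, 8.62 and 9.45, and the control means of the other lines lay between 6.57 in Col and 7.37 in iaa17-6. It was 2.90-fold higher in axr3-1 than in iaa17-6 (log2 1.54, SE 0.20, limma adjusted p = 3.72e-05) and 3.32-fold higher than in the triple mutant (log2 1.73, SE 0.20, limma adjusted p = 7.73e-06). AT3G05400 read 7.43, 7.70 and 7.69 in axr3-1 after IAA, 6.44, 5.98 and 6.09 in iaa17-6, 6.03, 6.17 and 6.24 in the triple mutant and 5.92, 6.02 and 6.27 in Col. It was 2.71-fold and 2.76-fold higher than in iaa17-6 and the triple mutant (log2 1.44 and 1.46, SE 0.15 each). All 9 arrays of the other lines lay below the lowest axr3-1 array for each of these loci.

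Some loci were near or at the floor after IAA in every line but axr3-1. AT1G52700 read 6.88, 6.71 and 7.02 on the axr3-1 IAA arrays and stood at the floor on the 9 IAA arrays of the other lines, so that it was at least 2.34-fold higher than in either mutant. AT4G31330 likewise read 6.63, 6.54 and 6.81 in axr3-1 with the other 9 at the floor, at least 2.02-fold higher. In control both were also seen outside axr3-1, with AT4G31330 at 5.82, 5.79 and 6.14 in iaa17-6 and AT1G52700 at 5.66, 5.90 and 5.95 there. AT2G36970 read 7.06, 6.57 and 7.26 in axr3-1, against 5.86, 5.73 and 6.03 in iaa17-6 (2.13-fold, log2 1.09, SE 0.16) and the floor in the triple mutant (at least 2.50-fold). AT2G03550 had means of 6.36 ± 0.22 in axr3-1 and 5.80 ± 0.15 in iaa17-6 (SD, n = 3), with 1 iaa17-6 array at the floor, and stood at the floor on all triple-mutant and Col IAA arrays.

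**Figure D3:**
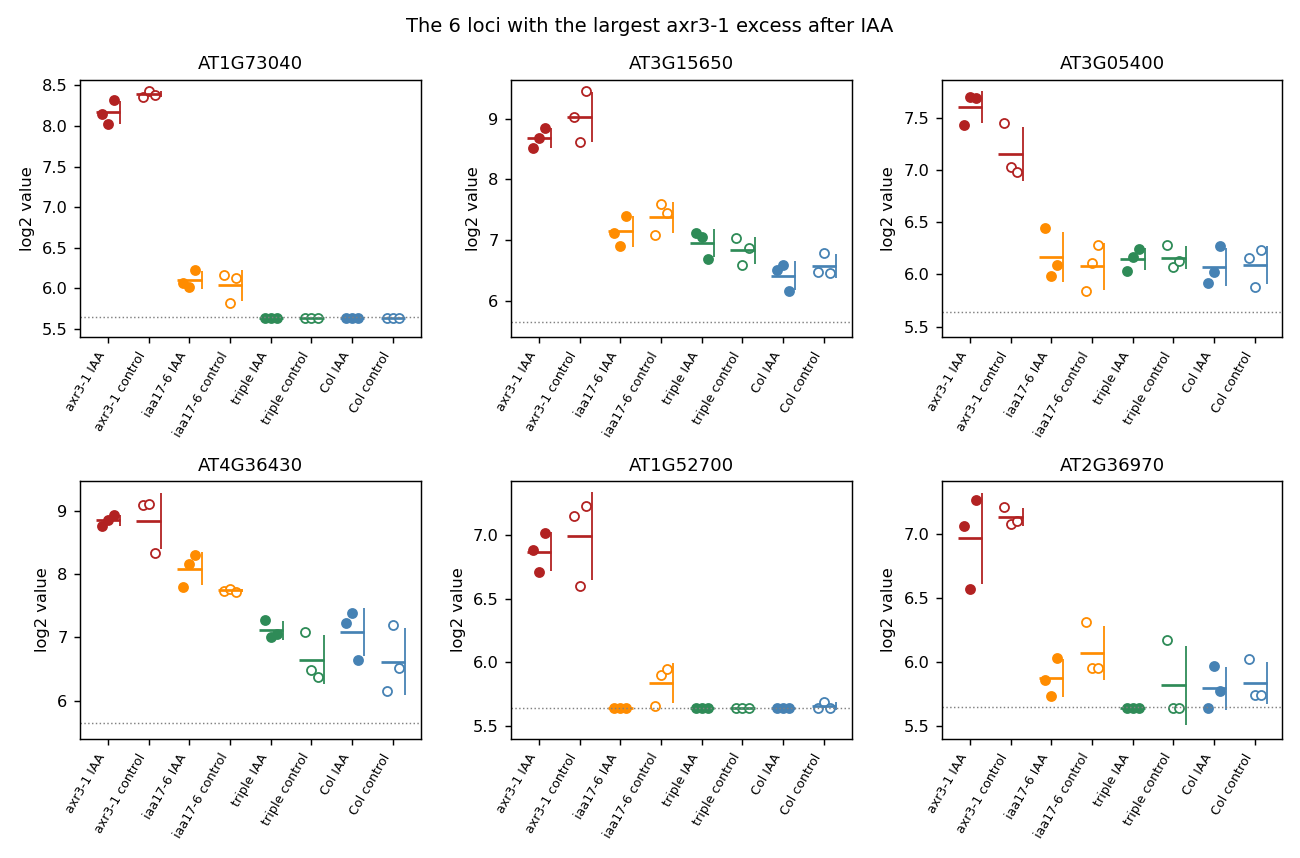
Log2 values of 6 loci on every array (points, filled with IAA and open in control), with group means as bars, SD as vertical lines and the floor dotted; "triple" is iaa5 iaa6 iaa19. For each locus the 3 axr3-1 IAA arrays lie above all IAA arrays of the other lines, as at AT1G73040, where they read 8.03 to 8.32.

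For AT4G36430 and AT5G22460 the iaa17-6 IAA arrays lay between those of axr3-1 and those of the triple mutant and Col. AT4G36430 read 8.76, 8.86 and 8.93 in axr3-1 after IAA, 7.80, 8.16 and 8.30 in iaa17-6, 7.28, 7.00 and 7.05 in the triple mutant and 7.22, 7.38 and 6.65 in Col. The axr3-1 excess was 3.34-fold over the triple mutant (log2 1.74, SE 0.26, limma adjusted p = 0.000111), while that over iaa17-6 was 0.77 with an adjusted p = 0.0848 in limma. AT5G22460 read 7.77, 7.95 and 7.99 in axr3-1 after IAA, 7.36, 7.41 and 7.16 in iaa17-6, 6.25, 6.15 and 5.87 in the triple mutant and 6.40, 6.27 and 5.85 in Col. It was 3.52-fold higher than in the triple mutant (log2 1.82, SE 0.15) and 1.51-fold higher than in iaa17-6 (log2 0.59, SE 0.15, limma adjusted p = 0.0199). The last call was lost without iaa17-6 IAA replicate 3 or without axr3-1 IAA replicates 2 or 3 (highest limma adjusted p = 0.0934).

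Among the other leading loci, AT2G25625 read 7.49, 6.99 and 7.11 in axr3-1 after IAA, 6.62, 6.22 and 6.23 in iaa17-6 and 5.91, 5.74 and 5.64 in the triple mutant, and was 1.79-fold and 2.69-fold higher. AT5G18840 read 6.72, 7.05 and 7.28 in axr3-1, 6.24, 5.86 and 5.64 in iaa17-6 and 5.76, 6.08 and 5.84 in the triple mutant, and was at the floor on all Col IAA arrays. Its excess was 1.1 and 1.12 on the log2 scale (SE 0.21 each), and without the 6 arrays that stood apart it passed the threshold in neither comparison, nor did AT5G53420, AT5G09480 and AT3G57780 against the triple mutant or AT5G22460, AT3G58550, AT3G22550 and AT1G04770 against iaa17-6. AT5G53420 read 8.57, 8.83 and 9.03 in axr3-1, 7.26, 7.76 and 7.93 in iaa17-6 and 7.95, 8.04 and 7.78 in the triple mutant, 2.23-fold and 1.85-fold higher. AT1G73120 read 9.34, 9.56 and 9.39 in axr3-1, 8.21, 8.05 and 8.45 in iaa17-6 and 8.67, 8.69 and 8.41 in the triple mutant, 2.29-fold and 1.79-fold higher. For all 4 loci the axr3-1 arrays stood clear of both mutants, and for AT5G53420 and AT1G73120 the triple mutant lay above Col, whose IAA means were 7.50 ± 0.11 and 8.05 ± 0.36 (SD, n = 3).

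AT3G16330 was also called against each mutant (log2 1.00 and 0.92, SE 0.19 each), as was AT3G58550 (log2 0.67 and 1.14, SE 0.20 each). Called against iaa17-6 were further AT2G46630 (log2 0.97, SE 0.22), AT1G04770 (log2 0.88, SE 0.25) and AT3G22550 (log2 0.70, SE 0.21), whose differences from the triple mutant of 0.54, 0.37 and 0.52 were not past the threshold. Called against the triple mutant were further AT4G14020 (log2 1.43, SE 0.16), AT1G23130 (log2 1.46, SE 0.12), AT2G18370 (log2 1.22, SE 0.21), AT2G41090 (log2 0.96, SE 0.17), AT3G56200 (log2 0.78, SE 0.19), AT3G57780 (log2 0.76, SE 0.22) and AT5G09480 (log2 0.74, SE 0.18). The iaa17-6 differences of these last 7 loci, and of AT4G36430, ran between 0.38 at AT1G23130 and 0.77 at AT4G36430 without passing the threshold, and whether they differ from those against the triple mutant was not tested. Single arrays decided some of these calls. Against iaa17-6, those of AT3G58550, AT3G22550 and AT1G04770 were each lost without 5 of the 6 arrays taken in turn, with highest limma adjusted p-values of 0.224, 0.187 and 0.191. Against the triple mutant, that of AT3G57780 was lost without 4 of the 6 arrays (highest limma adjusted p = 0.157), and that of AT3G56200 without triple-mutant IAA replicate 2 (limma adjusted p = 0.0550).

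Another 18 loci passed the threshold in neither comparison, and several of them were as high in another mutant as in axr3-1. AT4G27450 read 10.03, 10.52 and 11.00 in axr3-1 after IAA, 9.89, 10.97 and 11.24 in iaa17-6, 11.29, 11.19 and 11.32 in the triple mutant and 10.20, 10.79 and 9.81 in Col. AT5G66985 read 7.81, 8.11 and 8.46 in axr3-1, 6.96, 8.23 and 8.45 in iaa17-6, 9.0, 9.19 and 9.12 in the triple mutant and 7.44, 8.54 and 6.82 in Col. For both, every triple-mutant IAA array lay above every axr3-1 IAA array, but the differences of -0.75 (95% interval -1.54 to 0.03) and -0.98 (95% interval -1.91 to -0.05) were not past the threshold (limma adjusted p = 0.268 and adjusted p = 0.210). AT3G03270 likewise had its highest mean in the triple mutant, with 10.93 ± 0.26 in axr3-1, 10.94 ± 0.33 in iaa17-6, 11.31 ± 0.01 in the triple mutant and 10.52 ± 0.37 in Col after IAA (SD, n = 3). AT3G27220 gave 7.63 ± 0.33 in axr3-1 and 8.06 ± 0.13 in the triple mutant, and AT4G10270 gave 9.40 ± 0.19 and 8.99 ± 0.27 (SD, n = 3). AT2G43620 read 8.84, 9.37 and 9.72 in axr3-1, 8.91, 10.19 and 9.93 in iaa17-6, and 9.69, 9.64 and 9.45 in the triple mutant, with overlap between all of them.

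Some of these loci had a wide spread between replicates. The SE of the difference between axr3-1 and iaa17-6 was 0.44 at AT5G66985, 0.46 at AT4G10270 and 0.37 at AT4G27450, but 0.23 at AT3G03270. Over the 44 loci its median was 0.21, and its smallest value was 0.09 at AT1G73040, where groups at the floor lower it. The largest, 0.64, was that of AT3G46280, which read 7.55, 8.37 and 6.76 in axr3-1 after IAA, 7.82, 7.63 and 5.94 in iaa17-6, and 6.40, 8.15 and 8.29 in the triple mutant. In each of the 6 groups that hold an array standing apart over all probe sets, that array was the lowest for this locus, as in Col control, where replicate 3 read 6.08 beside 7.61 and 7.49. Whether the property that set these arrays apart plays a part in the values of AT3G46280 was not tested. The remaining loci called in neither comparison were AT1G62290, AT1G65500, AT2G16660, AT2G25510, AT2G29670, AT2G39920, AT2G43530 and AT5G58570, with differences from iaa17-6 of -0.42 at AT2G43530 to 0.81 at AT2G29670 and from the triple mutant of -0.04 to 0.72 at AT1G62290, and the 3 described next.

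For AT2G40435, AT5G64550 and AT4G16563 the axr3-1 excess lay mainly in the control arrays. AT2G40435 read 5.64, 5.64 and 5.68 on the axr3-1 IAA arrays, against 6.95, 7.18 and 7.29 on the axr3-1 control arrays, and 5.64 on all 3 IAA arrays of each other line. Its iaa17-6 control arrays read 5.74, 6.34 and 6.35, 1 triple-mutant control array read 6.36, and the other triple-mutant and all Col control arrays stood at the floor. AT5G64550 read 5.83, 6.29 and 5.64 in axr3-1 with IAA, against 7.10, 7.55 and 7.26 in control, and AT4G16563 read 6.48, 5.90 and 5.64, against 6.84, 6.72 and 6.84. For these loci the IAA arrays of axr3-1 lay below its control arrays without overlap, and AT2G40435 had the largest such difference of the 44, -1.48. All Col IAA arrays and 7 of 9 Col control values of these 3 loci stood at the floor, where a fall in Col could not be seen.

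**Figure D4:**
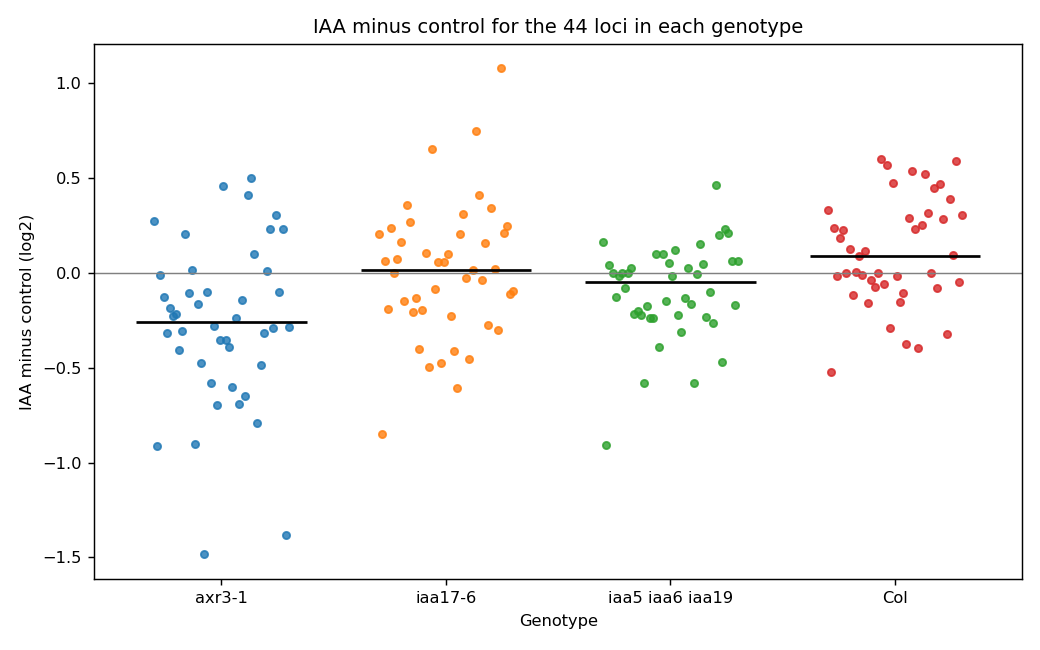
Mean log2 value with IAA minus that in control for each of the 44 loci (points) in the 4 genotypes, with the median as a black bar. The axr3-1 points have a median of -0.26 and the iaa17-6 points a median of 0.02, and the lowest point of all is AT2G40435 in axr3-1.

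Over all 44 loci, the axr3-1 IAA mean was lower than the axr3-1 control mean for 33, with a median difference of -0.26 and a range of -1.48 at AT2G40435 to 0.50 at AT4G10270. These differences carry no test, since the axr3-1 control arrays were chosen for being high, which lowers them. Compared with Col after IAA, axr3-1 was higher for 43 of 44 loci, by a median of 0.98, and 34 (77.3%) had no overlap between the groups, where 12.2% of all probe sets did. The Col IAA arrays entered the limit on the Col response, so this too is a description. The exception was AT3G46280, at -0.03. In the same terms iaa17-6 control lay above Col control without overlap for 16 loci, where 6.12% of all probe sets did, and the triple-mutant control for 14, where 5.13% did, beside Col control arrays chosen for being low.

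In iaa17-6 and the triple mutant, whose IAA and control arrays the limits did not use, the shares of the loci called in a response to IAA were 0% to 4.55% in either direction. In iaa17-6, 2 of 44 rose and 1 fell (limma), or 4.55% and 2.27%, near the 4.41% and 3.31% of all probe sets called, and 3 and 6 loci had an unadjusted p under 0.05 in these directions. In the triple mutant 0 rose and 1 fell, where 3.68% and 3.59% of all probe sets were called, and 0 and 4 loci had an unadjusted p under 0.05 in these directions. The median difference of the 44 loci was 0.02 in iaa17-6 and -0.05 in the triple mutant. AT5G22460 rose in iaa17-6, with 7.36, 7.41 and 7.16 after IAA, against 6.27, 6.21 and 6.23 in control (2.11-fold, log2 1.08, SE 0.15, limma adjusted p = 6.14e-05). Its difference in the triple mutant was 0.23, with overlapping groups, but the difference between the responses, 0.85 (SE 0.21), was not past the threshold (limma adjusted p = 0.632). AT2G41090 rose in iaa17-6 with 9.45, 9.60 and 9.63 after IAA, against 8.81, 9.15 and 8.76 in control (log2 0.65, SE 0.17, limma adjusted p = 0.0204). That call was lost without iaa17-6 control replicates 1 or 3 or IAA replicates 2 or 3, with a highest limma adjusted p = 0.0903. In Col, the mean of AT2G41090 was also higher with IAA, at 9.35 against 8.75 in control, a difference of 0.60 given without a test. Same-numbered control and IAA arrays shared deviations in these lines. In the fit of only the 6 iaa17-6 arrays with the replicate number as a block, 0 loci were called. That fit called 97 of all probe sets in either direction.

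AT1G11700 fell after IAA in both lines. It stood at the floor on all 3 iaa17-6 IAA arrays, against 6.81, 6.18 and 6.48 in iaa17-6 control, at least 1.80-fold lower (limma adjusted p = 0.0151). In the triple mutant it read 5.75, 5.64 and 5.64 with IAA, against 7.34, 6.15 and 6.28 in control (log2 -0.91, SE 0.21, limma adjusted p = 0.00902). The same locus read 6.86, 6.38 and 6.77 in axr3-1 with IAA, against 7.62, 7.57 and 7.56 in axr3-1 control, and stood at the floor on the 3 Col IAA arrays, against 6.16, 6.08 and 6.27 in Col control. IAA arrays were thus below control arrays in all 4 lines without overlap, and after IAA the locus was above the floor on all 3 arrays in axr3-1 alone. The iaa17-6 call was lost without iaa17-6 control replicate 1 (limma adjusted p = 0.101), and the triple-mutant call without the 6 arrays that stood apart (log2 -0.57, limma adjusted p = 0.0847). In fits of only the 6 triple-mutant arrays it was lost too, with a limma adjusted p = 0.289, or 0.191 with the replicate number as a block. The blocked fit called AT3G57780 instead (log2 -0.58, limma adjusted p = 0.0349), which had an adjusted p = 0.155 in the fit over all 24 arrays.

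Between the other mutants themselves, 1 of the 44 loci differed in control, where 0.0775% of all probe sets were called higher in iaa17-6 and 0.0846% lower. AT1G23130 read 10.40, 9.79 and 10.27 in iaa17-6 control, against 9.12, 9.14 and 9.05 in triple-mutant control, 2.07-fold higher (log2 1.05, SE 0.12, limma adjusted p = 0.000182). With IAA it read 10.37, 10.14 and 10.14 in iaa17-6, against 9.19, 9.19 and 9.05 in the triple mutant, while the axr3-1 arrays read 10.70, 10.45 and 10.65 and the Col arrays 9.62, 9.53 and 9.73. In both treatments the iaa17-6 arrays thus lay between those of axr3-1 and Col, and the triple mutant below Col. At an unadjusted p under 0.05, 10 loci were higher and 6 lower in iaa17-6 control than in triple-mutant control. Of the loci, 0 differed in their IAA response between these mutants (limma), where 0.0564% of all probe sets were called higher in iaa17-6 and 0.0141% lower, and 2 and 0 loci had an unadjusted p under 0.05 in these directions.

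**Figure D5:**
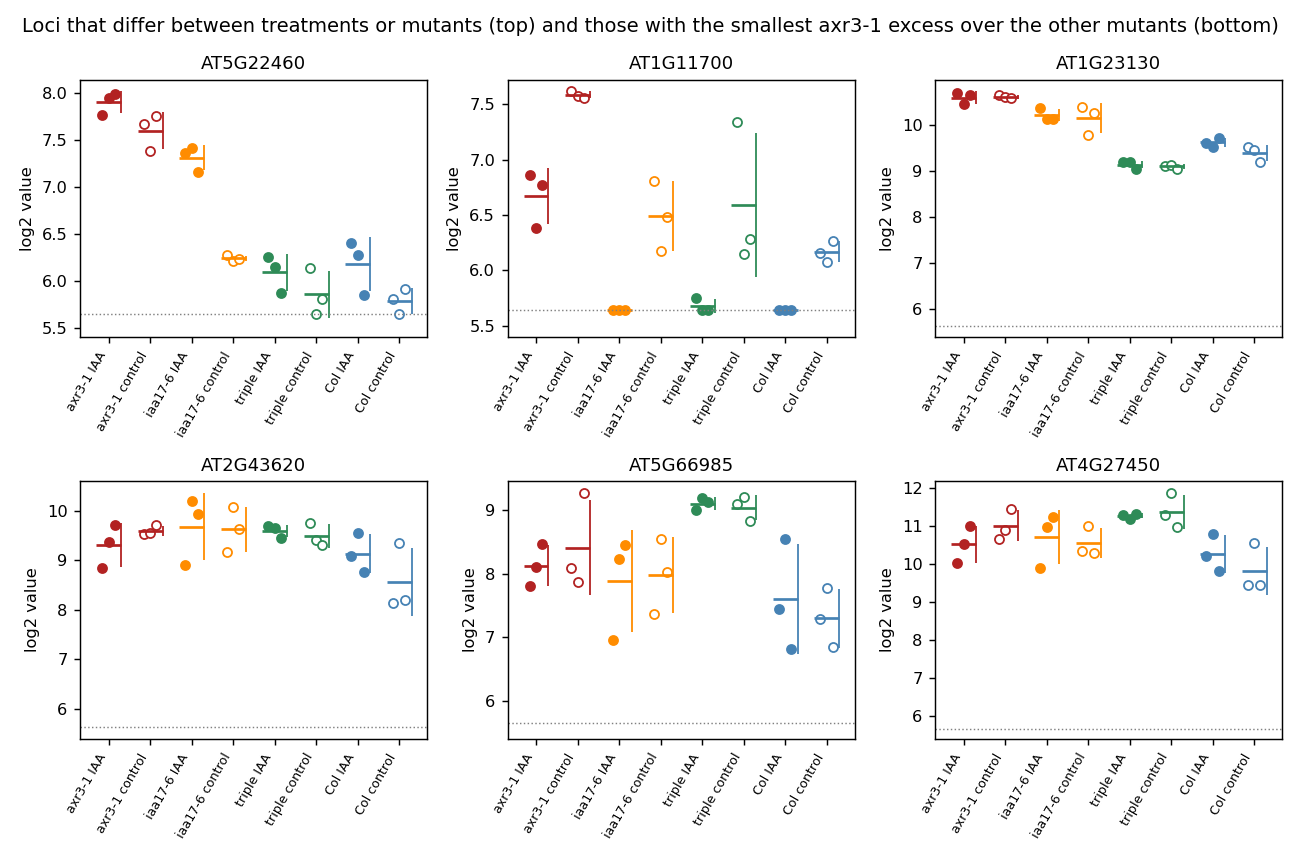
Log2 values on every array for 3 loci called in an IAA response or between the other mutants (top) and for the 3 with the smallest mean axr3-1 excess over both other mutants after IAA (bottom), drawn with filled points for IAA, open points for control, bars for means, vertical lines for SD and a dotted floor; "triple" is iaa5 iaa6 iaa19. AT1G11700 is lower with IAA in every line, AT1G23130 is high in axr3-1 and iaa17-6, and AT5G66985 and AT4G27450 have their highest group means in the triple mutant.

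The loci lie on all 5 chromosomes, with 8 of 3068 locus-coded genes that have a probe set on chromosome 1, 13 of 1938 on chromosome 2, 10 of 2420 on chromosome 3, 6 of 1699 on chromosome 4 and 7 of 2673 on chromosome 5. The closest pairs in the gene order of RefSeq TAIR10.1 were AT1G73040 and AT1G73120 with 9 genes between them, AT2G43530 and AT2G43620 with 11, and AT2G25510 and AT2G25625 with 13. The 2 loci of the first pair were each called against both mutants, those of the second against neither. Those of the third differed, with AT2G25625 called against both mutants and AT2G25510 against neither.

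Other gene lists gave the setting for these values. All 3 measured root hair markers, EXPA7, EXPA18 and XTH26, stood at the floor on the 6 axr3-1 arrays, where their summed linear level was 150, while it was 293 to 503 on the IAA arrays of the other lines. Their part in the values of the 44 loci was not tested. The root marker PYK10 differed by -0.07 between axr3-1 and iaa17-6 after IAA (95% interval -0.30 to 0.16) and the leaf marker RCA by 0.04 (-0.25 to 0.33). Against the triple mutant these differences were -0.19 (-0.42 to 0.03) and -0.02 (-0.31 to 0.27). PYK10 was the only root marker listed, and RCA the only 1 of 6 listed leaf markers with a probe set named here. Of 9 measured auxin response genes, 5 were lower in axr3-1 than in iaa17-6 after IAA and 6 lower than in the triple mutant, with 0 higher. Of 8 listed genes of the glyoxylate cycle and gluconeogenesis, only 2 had a probe set named here. Of these, PPDK was higher in each comparison (log2 0.98 and 1.05, SE 0.16 each). ICL passed the threshold in neither, at 1.65 against iaa17-6 and -1.52 against the triple mutant (SE 0.62 each), so that the list medians were 1.31 and -0.23. Of 14 listed dark- and sugar-starvation genes only 3 had a probe set named here, and 0 of these passed in either comparison. The dehydration and seed lists had 0 tested members.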

How the data were processed

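RNA of whole seedlings was hybridised to 24 arrays, 3 in each of 8 groups taken from the labels. The values the authors deposited are on a log2 scale; how they were summarized and normalized is not given in the sources used here. Every array has the same lowest value, the log2 of 50. The 64 control probe sets were left out, as were 8554 of 22746 probe sets whose mean was not above the 30th percentile; that percentile is the floor itself, so every probe set at the floor on all arrays left. Group means of the other 14192 were fitted over all 24 arrays in limma 3.58.1 (R 4.3.3; lmFit, eBayes, variance trend on the mean, residual degrees of freedom 16), with Benjamini-Hochberg adjustment within each comparison and a threshold of 0.05, after a test on simulated data. The number of arrays limits the precision; the median SE of a difference was 0.15.

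The 44 loci, gene lists and tests were chosen with earlier results of these data known. Comparisons were tested only where they use none of the axr3-1 control, Col control and Col IAA arrays, which chose the loci. All 44 loci are named. Single array values are given for the 12 with the largest mean axr3-1 excess over the other mutants after IAA, those called in another comparison, the 3 with the smallest excess, and AT2G40435, AT5G64550, AT4G16563 and AT3G46280, added after their values were seen. Lists covered auxin response, starvation, glyoxylate cycle, dehydration, root, root hair, leaf and seed genes. Gene names come from the platform annotation and RefSeq TAIR10.1.

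Deviations from the group mean of same-numbered arrays correlated above 0.1 in every pair between axr3-1 IAA and iaa17-6 IAA (0.27, 0.58 and 0.79) and between IAA and control in iaa17-6 (0.16, 0.56 and 0.70) and the triple mutant (0.84, 0.58 and 0.63), so the numbers were taken to pair these samples. In each of these comparisons the arrays that stood apart had the same number. Deviations within a group cancel out, so the correlations of a comparison are not independent, and the pairing remains an assumption. An array was said to stand apart where its mean correlation with the other arrays of its group was over 0.01 below theirs. Alternatives covered the filter, normalization, fitted groups, array weights, variance trend, replicate block, limits and single arrays left out; after the data were seen, the arrays that stood apart (left out or as a block) and a block within only the fitted groups were added.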

Additional observations from a re-analysis of the deposited data

How the results depend on the processing

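No call changed direction under the alternatives run. A restriction to probe sets that no array has at the floor keeps 30 of the 44 loci. The calls after IAA were then 7 against iaa17-6 (18 with all loci) and 13 against iaa5 iaa6 iaa19 (23). There was 1 in the iaa17-6 response (3) and 0 in the triple-mutant response (1). Over all probe sets, calls in either direction in these comparisons were 498, 800, 562 and 561, in that order. Without the restriction they were 1027, 1385, 1096 and 1032. Fitting only the arrays of a comparison, where fewer arrays estimate the spread, gave 8 against iaa17-6 and 1 in the iaa17-6 response. It gave 0 in the triple-mutant response and 0 between the mutants in control (1). These fits called 322, 363, 706 and 3 over all probe sets, in that order. Adding the replicate number as a block to those small fits gave 2 against iaa17-6 and 0 against the triple mutant. It gave 0 in the iaa17-6 response and 0 between the mutants in control. In the triple-mutant response it gave 1, where AT1G11700 was lost and AT3G57780 called. The calls over all probe sets were 116, 0, 97, 0 and 846, in that order. The replicate block over all 24 arrays gave 21, 24 and 3 calls against iaa17-6, against the triple mutant and in the iaa17-6 response. It lost no call named, and it called 1200, 1618 and 1230 over all probe sets. Same-numbered arrays did not pair in the comparisons of axr3-1 with the triple mutant after IAA (correlations 0.01, 0.70 and -0.55) and of the other mutants in control (-0.12, 0.58 and -0.51). Array weights, whose estimation stopped before it had converged in at least some fits, gave 3 calls in the triple-mutant response and 7 between the mutants in control, and moved the calls over all probe sets to 3481 against the triple mutant (1385 without weights), 2348 in its response (1032) and 325 between the mutants in control (23). The cause was not tested. Without the arrays that stood apart, the triple-mutant response had 0 calls, where 903 were made over all probe sets. With them as a block it had 2 (1424 over all probe sets), as did the mutants in control (48). Leaving out single arrays gave 14 to 17 calls against iaa17-6, 21 to 23 against the triple mutant, 2 to 3 in the iaa17-6 response, 1 to 2 in the triple-mutant response (2 without triple-mutant control replicate 2) and 1 to 2 between the mutants in control (2 without iaa17-6 control replicate 2). Over all probe sets, leaving out single arrays gave 758 to 960, 931 to 1354, 855 to 1004, 759 to 945 and 11 to 34 calls, in that order. The difference between the responses had 0 calls among the loci throughout. A limit of 0.8 on the difference from Col would have kept 80 loci, and one of 1.2 would have kept 25. With single arrays left out, the limits gave sets of 38 to 56 loci, which do not all belong to the 44. Of the 44, 32 remained without Col control replicate 3, 36 without Col control replicate 2 and 37 without axr3-1 control replicate 3. All 44 remained without Col IAA replicate 1 or replicate 2. The floor limits what can be seen for the 14 loci that reach it on some array. The planned search for promoter motifs and its other window were not run, and no block within only the fitted groups was made for the difference between the responses.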
